A study of Homo sapiens with 18 samples.

Results

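Histone genes were examined in 3 K562 cell lines that differ in the corepressor BASP1. The genes were chosen by symbol (those beginning HIST1H to HIST4H, H2AF, H3F3 or H1F), which took 91 of the 28395 genes in the deposited RNA-seq tables. Of these, 72 belong to the replication-dependent clusters (6 of H1, 17 of H2A, 20 of H2B, 14 of H3 and 15 of H4), 16 are replication-independent genes, 2 are pseudogenes (H3F3AP4 and HIST1H2APS1) and 1 is the antisense transcript H1FX-AS1. The replication-dependent genes include HIST2H2BA and HIST2H2BC, which RefSeq now lists as transcribed pseudogenes. By locus, 56 symbols lie in HIST1, 13 in HIST2, 3 in HIST3 and 1 in HIST4.

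K562 is an erythroleukaemia cell line. V-K562 cells are the control line, B-K562 cells express wild type BASP1, and G-K562 cells express BASP1-G2A, a mutant that lacks the N-terminal acceptor for myristate. The lines are stably transfected pools kept under G-418, and each was measured in biological triplicate by RNA-seq and by ATAC-seq (an assay that cuts accessible DNA with a transposase). The comparisons ask how histone transcripts and the accessibility of their starts differ with wild type BASP1, and with a BASP1 that cannot be lipidated.

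Replication-dependent histone genes supply the core histones and linker H1 during S phase. Most of their mRNAs carry no poly(A) tail and end just after a conserved stem-loop, which is bound by the stem-loop binding protein SLBP and cut with the help of the U7 snRNP. Replication-independent genes encode variants such as H2A.Z, H2A.X, macroH2A and H3.3, and most of their mRNAs are polyadenylated. The RNA-seq libraries were made with a poly(A) selecting kit. A value for a replication-dependent gene therefore describes its polyadenylated RNA together with whatever other RNA the selection let through, and a change in the amount of RNA cannot be told apart from a change in its polyadenylation.

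The stem-loop was located in the genome for each gene because it marks the replication-dependent class by sequence. All 72 replication-dependent genes held a match inside the gene or just past its end. So did H2AFX, which is classed here as replication-independent, so the match does not fully separate the classes. Within 150 bases before to 50 bases after the end of the gene model, a match was found in 68 of 28325 genes (0.24%), of which 1 was no histone gene of the rule. The loop was most often TTTC, and among the replication-dependent genes the stem of the H4 genes differed from that of the other families. In the genes below the capitals mark both arms of the stem.
HIST1H1C (GRCh38, chr6:26055744-26055759, minus strand): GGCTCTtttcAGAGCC
HIST1H3B (chr6:26031597-26031612, minus strand): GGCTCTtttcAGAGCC
HIST1H2AG (chr6:27133515-27133530, plus strand): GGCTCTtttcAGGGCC
HIST1H2BK (chr6:27146366-27146381, minus strand): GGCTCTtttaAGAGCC
HIST1H4E (chr6:26205001-26205016, plus strand): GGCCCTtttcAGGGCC
HIST1H4I (chr6:27139654-27139669, plus strand): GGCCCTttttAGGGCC
H2AFX (chr11:119094898-119094913, minus strand): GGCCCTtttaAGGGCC
The first form listed was held by 11 of 14 H3, 13 of 17 H2A, 13 of 20 H2B and 4 of 6 H1 genes. The form shown for HIST1H4E was held by 10 of the 15 H4 genes and that of HIST1H4I by 4. In 66 of the 72 genes the deposited gene model ended within 60 bases of the stem-loop. It ran on past it in the other 6, all of H2B: HIST1H2BD, HIST1H2BK, HIST2H2BE, HIST2H2BF, HIST2H2BC and HIST2H2BA. The model of HIST1H2BK continued for 8073 bases beyond its stem-loop, introns included, and that of H2AFX for 1024 bases.

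BASP1 itself was at 5 to 7 in the V-K562 libraries, at 6189 to 6849 in B-K562 and at 8124 to 12538 in G-K562. These values, like all RNA-seq values here, are normalized counts: read counts divided by a size factor per library. They summed to between 32074895 and 33229588 per library. All 10 erythroid and K562 markers examined (among them GATA1, TAL1 and HBG2) were present, the lowest value being 385. Of these markers 9 were higher in B-K562 than in V-K562 and NFE2 was lower, while all 10 were lower in G-K562 than in either other line. HBG2, a fetal globin gene, lay between 58217 and 62047 in B-K562 beside 34612 to 41363 in V-K562, and between 5347 and 5597 in G-K562 beside 35315 to 41997. The part of these markers in the histone results was not tested. V-K562 replicate 1 stood apart from the other V-K562 libraries in the epithelial genes KRT5 (up to 145) and CDH1 (up to 40) and in H1F0. No source ties equal replicate numbers of different lines together.

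Levels differed widely between histone genes. Per kb of merged exon, the highest genes in V-K562 cells were HIST1H1C (32555), which encodes linker histone H1.2, HIST1H2BK (15687), H2AFZ (15034), H3F3B (6565), HIST1H2AC (5167) and HIST3H2A (4236). In summed normalized counts HIST1H1C made up 40.3% of the V-K562 total of the replication-dependent genes and HIST1H2BK a further 22.3%. At the other end, 27 of the 91 genes never reached 10 in any library and 9 were at 0 throughout. The near-identical copies HIST2H2AA3 and HIST2H2AA4, HIST2H3A and HIST2H3C, and HIST2H4A and HIST2H4B are uncertain, since reads mapping to more than one place had been removed. The 66 genes whose model ends at the stem-loop had a median of 41.4 per kb, and the 6 whose model runs past it a median of 485.9, with ranges that overlapped (0 to 32555 and 0.65 to 15687).

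**Figure D1:**
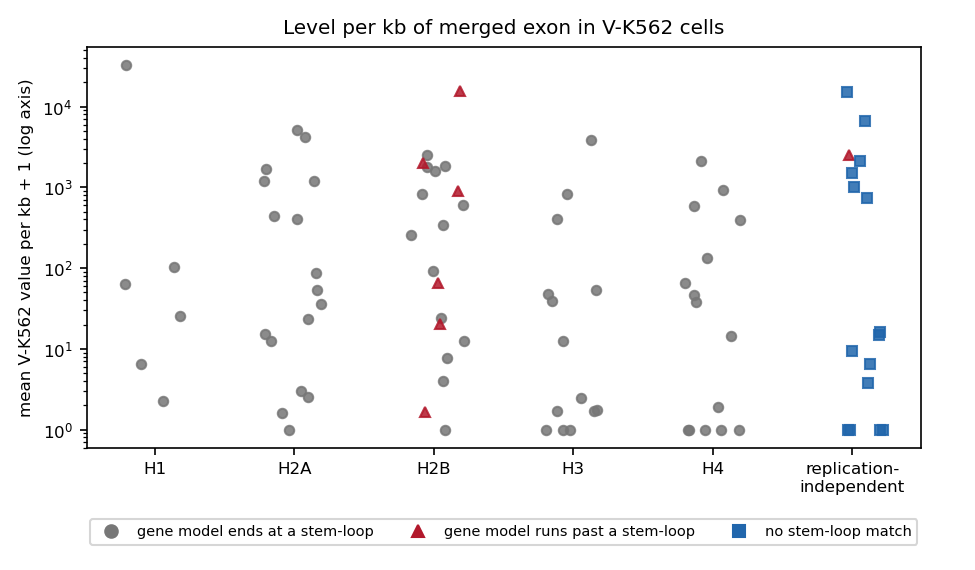
Mean V-K562 value per kb of merged exon, plus 1, on a log axis, for each histone gene of the 5 replication-dependent families and for the replication-independent genes. Circles are genes whose model ends at the stem-loop, triangles those that run past it and squares those with no match; HIST1H1C at 32555 per kb is the highest circle.

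In B-K562 cells the replication-dependent transcripts moved both ways against V-K562, and the H4 transcripts that passed the test fell. Of the 45 that could be tested, 17 passed an adjusted p of at most 0.05 downwards and 11 upwards (limma on log2 of value plus 1, adjusted over all genes), and their median was −0.11 on the log2 scale. Over all 14958 genes tested the same threshold called 37.2% lower and 38.6% higher, so the share that fell lies near the background and the share that rose below it. Without V-K562 replicate 2 the lower histone genes of all kinds numbered 11 in place of 18. Among the 28 replication-dependent genes with a mean of at least 100 over the 9 libraries, 13 were lower and 7 higher. With an added requirement of a 2-fold change, 1 was lower and 3 higher, against 14.1% and 6.46% of all genes. Both counts of higher genes include HIST2H2AC and HIST1H1B, which passed the filter through B-K562 alone and had to differ. With at least 10 required in every library, 17 of 41 were lower and 8 higher. The shares of all genes under this filter, or at a mean of at least 100, are not given, here or for G-K562 below. The backgrounds printed are for the main filter, so these counts cannot be read as an excess over them.

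HIST1H4I (chr6:27139309-27139678) encodes histone H4 and lies within the span of HIST1H2BK, on the opposite strand. It read 319, 334 and 360 in V-K562 and 157, 158 and 157 in B-K562, without overlap. This was a 2.14-fold decrease (log2 fold change −1.10 ± 0.09 SE, adjusted p = 8.30e-08) and the one replication-dependent gene to fall by 2-fold or more. HIST1H4E, another H4 gene, read 204, 211 and 234 in V-K562 and 116, 124 and 118 in B-K562 (−0.85 ± 0.10, adjusted p = 4.82e-06). Of the 8 H4 genes tested 5 fell and none rose, beside 37.2% lower and 38.6% higher of all genes. Of these 5, HIST1H4D read 47, 37 and 60 and then 21, 34 and 37, with values that touch at 37. As a sum over the H4 genes, their share was 44.9 to 51.6 per 1000000 of all values in V-K562 and 30.9 to 31.2 in B-K562. HIST3H2A, an H2A gene outside the main cluster, fell from 1807, 2040 and 2351 to 1198, 1250 and 1261 (−0.73 ± 0.08, adjusted p = 1.27e-06).

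The rises in B-K562 included the abundant HIST1H2BK. It read 13688, 13177 and 11966 in V-K562 and 20024, 19218 and 19385 in B-K562, again without overlap (0.60 ± 0.05, adjusted p = 2.51e-07). HIST1H2BJ, an H2B gene of the same cluster, rose from 1196, 1197 and 1158 to 1704, 1641 and 1742 (0.52 ± 0.05, adjusted p = 5.91e-07). The genes that rose by 2-fold or more were low: HIST2H2AC (5, 5 and 4, then 26, 23 and 16), HIST1H1B (4, 5 and 3, then 14, 15 and 19) and HIST1H3A (3, 3 and 10, then 12, 13 and 15). HIST2H2AC and HIST1H1B reached the test through their B-K562 values alone, so they had to differ, and they are given as values. The call of HIST1H3A was lost without V-K562 replicate 2 (adjusted p = 0.0595).

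HIST1H1C did not differ detectably. It read 23218, 24521 and 22564 in V-K562 and 23028, 23839 and 22850 in B-K562, with overlapping groups (−0.01 ± 0.05, adjusted p = 0.840). Because HIST1H1C and HIST1H2BK dominate the sum, the replication-dependent total was 1748 to 1827 per 1000000 in V-K562 and 1880 to 1899 in B-K562 although more genes fell than rose.

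In G-K562 cells most called replication-dependent transcripts were higher than in V-K562. Of 45 tested, 23 were higher and 1, HIST1H2BN, was lower, and the median log2 fold change was 0.41. The background was 33.5% higher and 33.3% lower of 15271 genes. With the 2-fold requirement 6 were higher and none lower, against 8.81% and 10.3% of all genes. Both counts of higher genes include HIST1H2BE, which passed the filter through G-K562 alone and had to differ. With at least 10 required in every library, 22 of 40 were higher and 1 lower. Of the 28 more abundant genes, 18 were higher and 1 lower. By family the higher genes were 10 of 16 for H2B, 5 of 6 for H3, 4 of 11 for H2A, 3 of 8 for H4 and 1 of 4 for H1.

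The 6 that rose by 2-fold or more were HIST1H3F, HIST1H3J, HIST1H2BE, HIST1H2AM, HIST1H2BD and HIST2H2BF. HIST1H2BD, whose model runs past its stem-loop, is the most abundant of them. It read 1236, 1228 and 1212 in V-K562 and 2425, 2747 and 2531 in G-K562, without overlap (1.06 ± 0.06, adjusted p = 6.36e-08). HIST1H2AM rose from 200, 209 and 182 to 465, 479 and 501 (1.29 ± 0.09, adjusted p = 2.93e-07). HIST1H3F, an H3 gene, rose from 23, 21 and 22 to 80, 86 and 67 (1.77 ± 0.18, adjusted p = 5.33e-06), and HIST1H3J from 24, 30 and 21 to 75, 71 and 105 (1.70 ± 0.21). HIST2H2BF rose from 82, 88 and 92 to 152, 201 and 188 (1.03 ± 0.14), and HIST1H2BE, which passed the filter through G-K562 alone, was at 3, 7 and 5 and then 16, 12 and 13.

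HIST1H4I and HIST1H4E, which fell in B-K562, rose in G-K562. HIST1H4I read 406, 426 and 440 in G-K562 beside 324, 339 and 367 in V-K562 on the scale of that table (0.30 ± 0.09, adjusted p = 0.00851). HIST1H4E read 335, 352 and 336 beside 207, 214 and 239 (0.63 ± 0.10, adjusted p = 0.000115). HIST1H3B fell from 408, 382 and 371 to 246, 287 and 290 in B-K562 (−0.50 ± 0.09, adjusted p = 0.000162), and stood at 723, 677 and 737 in G-K562 beside 414, 388 and 379 (0.85 ± 0.08, adjusted p = 1.97e-06). The comparisons of B-K562 and of G-K562 with V-K562 share the V-K562 libraries. HIST1H2BK and HIST1H1C were not past the threshold in G-K562 (log2 fold changes 0.07 ± 0.07 and −0.10 ± 0.06, adjusted p = 0.357 and 0.145).

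**Figure D2:**
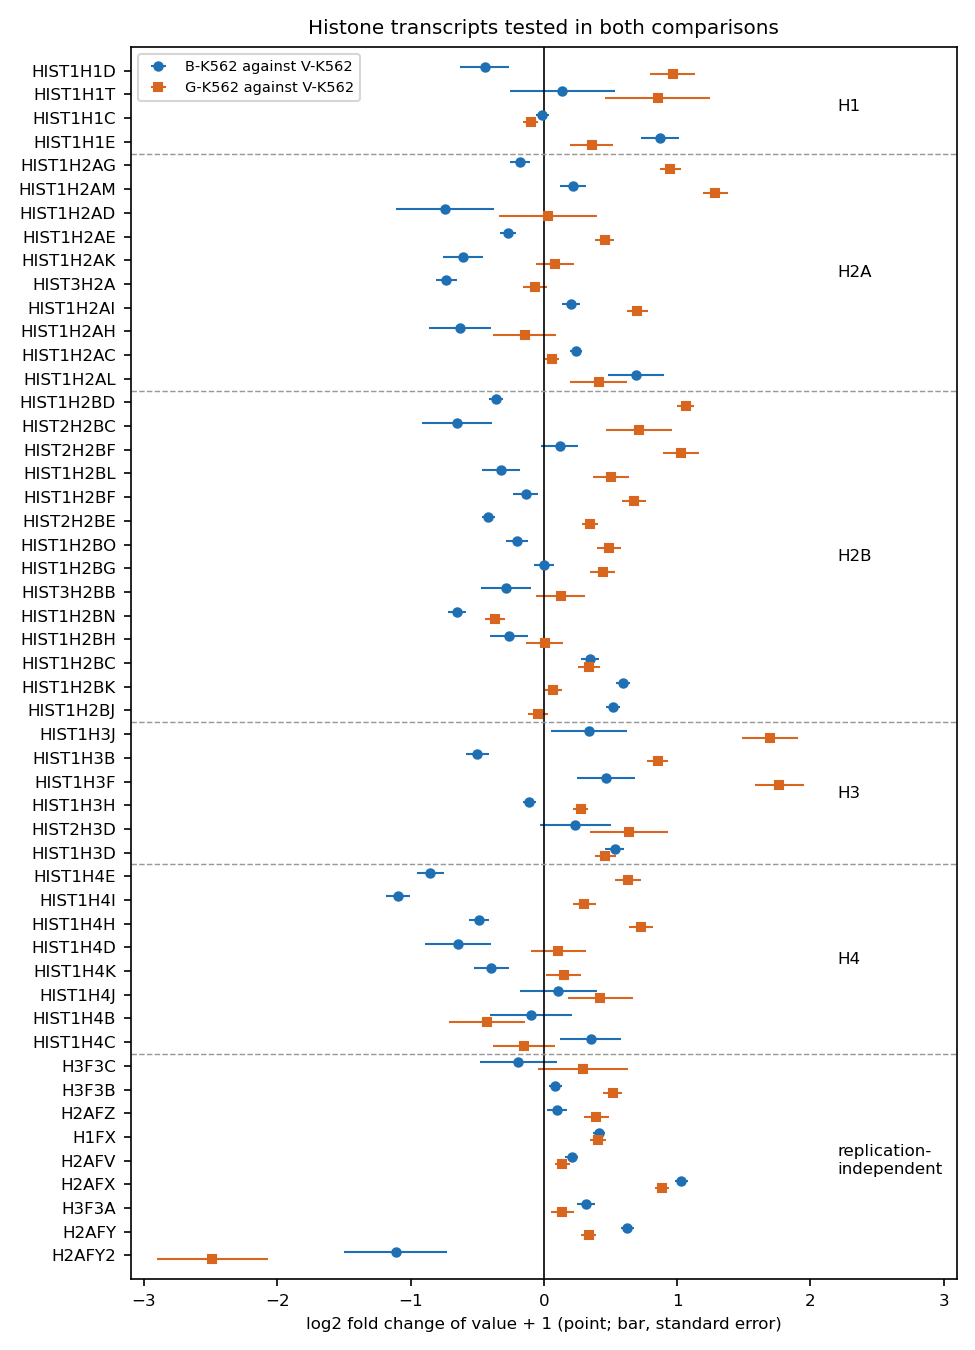
Log2 fold change of value plus 1 against V-K562 for each histone gene tested in both comparisons, by family, with B-K562 as circles and G-K562 as squares; bars are standard errors of the fit over 3 libraries a line. HIST1H4I sits at −1.10 in B-K562 and 0.30 in G-K562, and H2AFX at 1.03 and 0.89.

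The difference between the BASP1 lines was tested directly in a fit over all 9 libraries. Of 49 replication-dependent genes tested, 28 were higher and 6 lower in G-K562 than in B-K562, with a median log2 difference of 0.68. Of the 15521 genes tested 38.1% were higher and 40.5% lower, with a median of −0.02. With the 2-fold requirement 13 were higher and 1 (HIST2H2AC) lower, against 17.4% and 12.5% of all genes. Both counts of higher genes include HIST1H2BE and HIST1H2BB, and the 6 lower genes include HIST2H2AC and HIST1H1B. HIST2H2AC and HIST1H1B would not have passed the filter without their B-K562 values, nor HIST1H2BB without its G-K562 values. The calls of these genes are therefore no support for a difference. With at least 10 required in every library, 26 of 40 were higher and 4 lower. Among the 28 more abundant genes 20 were higher and 4 lower. HIST1H2BD differed by 1.42 ± 0.06 on the log2 scale (adjusted p = 2.19e-11), HIST1H4E by 1.48 ± 0.09, HIST1H1D by 1.42 ± 0.17 and HIST1H4I by 1.40 ± 0.08. The groups of these 4 genes did not overlap. HIST1H2BK (−0.53 ± 0.06) and HIST1H2BJ (−0.56 ± 0.06) were lower in G-K562 than in B-K562. The low gene HIST1H2BE read 0, 4 and 1 in B-K562 beside 16, 12 and 13 in G-K562 and is given as values, since it passed the filter through G-K562 alone. HIST1H2BB, also low, read 3, 3 and 2 in B-K562 and 18, 11 and 12 in G-K562. It needed its G-K562 values to pass the filter, so it too is given as values.

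As shares of all values, the H4, H3 and H2A sums lay above those of B-K562 in every G-K562 library, and those of H2B and H1 overlapped. The H4 genes reached 67.8 to 75.4 per 1000000 in G-K562 against 30.9 to 31.2 in B-K562. The H3 genes reached 109.3 to 115.0 against 76.0 to 79.4, and the H2A genes 277.0 to 283.5 against 209.0 to 209.9. The H2B sums overlapped (812.6 to 895.6 and 853.7 to 873.0), as did those of H1 (669.5 to 711.2 and 697.1 to 726.0). These sums were not tested.

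**Figure D3:**
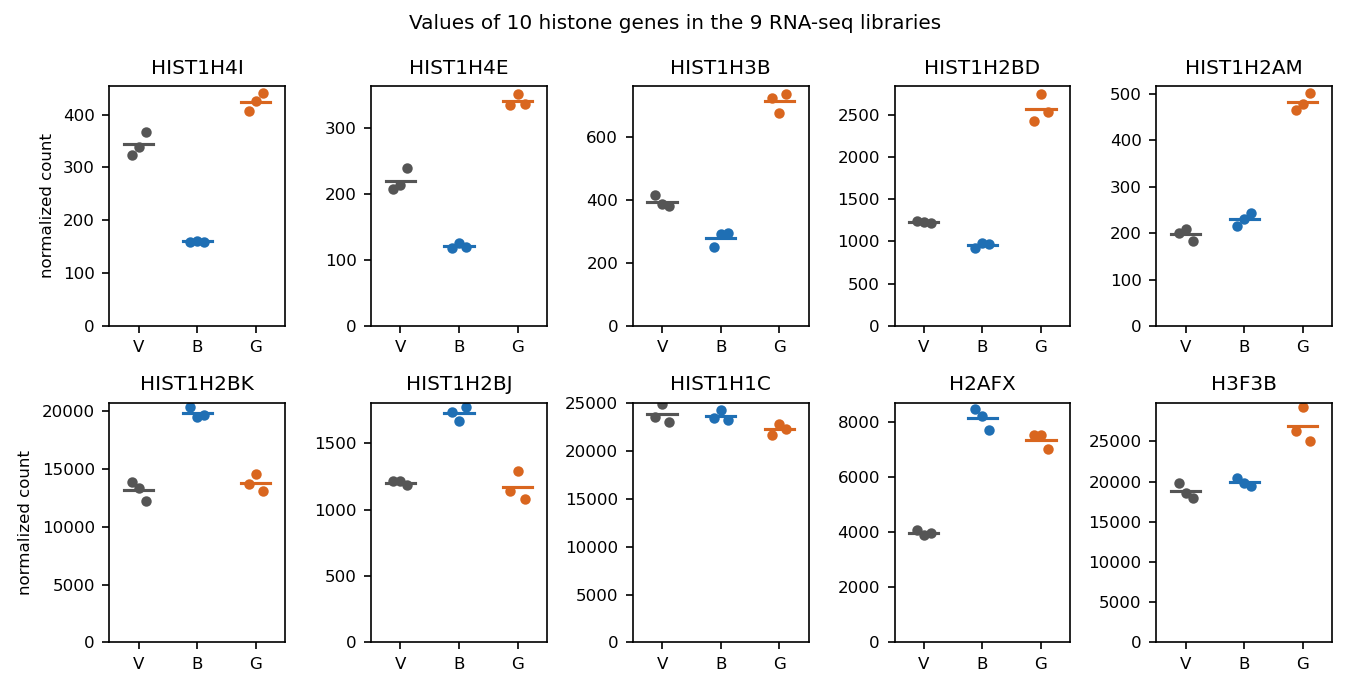
Normalized counts (linear axes from 0, one panel a gene) of 10 histone genes in the 9 libraries (V, B and G for the 3 lines), with B-K562 values put on the scale of the other table; horizontal lines are means. HIST1H4I, HIST1H4E, HIST1H3B and HIST1H2BD are lowest in B-K562 and highest in G-K562, while HIST1H2BK and HIST1H2BJ are highest in B-K562.

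Several H2A and H2B genes lie head to head and share one promoter region, so their transcripts could be set side by side. In B-K562 HIST1H2BJ rose (0.52, above) while HIST1H2AG fell, from 524, 613 and 598 to 504, 518 and 508 (−0.18 ± 0.07, adjusted p = 0.0415). The fall of HIST1H2AG was not past the threshold without B-K562 replicate 1, 2 or 3 or V-K562 replicate 2 or 3, with adjusted p = 0.0780 to 0.156. In G-K562 HIST1H2AG rose from 532, 623 and 610 to 1168, 1079 and 1153 (0.95 ± 0.08, adjusted p = 1.01e-06), while HIST1H2BJ read 1214, 1215 and 1182 and then 1141, 1292 and 1081 (−0.04 ± 0.07, adjusted p = 0.625). HIST1H2BK and its neighbour HIST1H2AH also went opposite ways in B-K562: HIST1H2AH read 30, 48 and 44 and then 26, 21 and 30 (−0.63 ± 0.23, adjusted p = 0.0251), with values that touch at 30, and the call was lost without B-K562 replicate 2 or V-K562 replicate 2 or 3 (adjusted p = 0.0748 to 0.118). HIST2H2BE fell from 4076, 4481 and 4528 to 3150, 3280 and 3375 (−0.42 ± 0.05, adjusted p = 6.93e-06) beside the low values of HIST2H2AC given above. HIST1H2AC and HIST1H2BC, in contrast, both rose in B-K562 (0.24 ± 0.05 and 0.34 ± 0.07). These pairs were chosen after their values had been seen.

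The promoters of the H2B genes that moved apart are shown because they hold the same motifs, beside 3 promoters of H3 and H4 genes that fell in B-K562. Each sequence is the 100 bases before the RefSeq start (GRCh38.p14), and capitals mark matches to the CCAAT box (CCAAT), the octamer bound by OCT1 (ATTTGCAT), both searched on either strand, and the TATA box (TATAAA) on the strand of the gene.
HIST1H2BK (chr6:27146859-27146958, minus strand): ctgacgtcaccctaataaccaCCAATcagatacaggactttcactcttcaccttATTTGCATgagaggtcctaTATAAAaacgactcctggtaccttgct
HIST1H2BJ (chr6:27132796-27132895, minus strand): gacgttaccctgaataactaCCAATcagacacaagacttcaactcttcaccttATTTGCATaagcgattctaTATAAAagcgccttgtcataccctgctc
HIST2H2BE (chr1:149886683-149886782, minus strand): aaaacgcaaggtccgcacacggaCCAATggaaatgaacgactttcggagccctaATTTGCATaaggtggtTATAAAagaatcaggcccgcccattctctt
HIST1H3B (chr6:26032100-26032199, minus strand): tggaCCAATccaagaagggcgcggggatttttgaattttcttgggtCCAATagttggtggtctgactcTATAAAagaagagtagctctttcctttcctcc
HIST1H4E (chr6:26204510-26204609, plus strand): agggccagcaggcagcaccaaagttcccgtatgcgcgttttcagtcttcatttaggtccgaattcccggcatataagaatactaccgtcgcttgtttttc
HIST1H4I (chr6:27139182-27139281, plus strand): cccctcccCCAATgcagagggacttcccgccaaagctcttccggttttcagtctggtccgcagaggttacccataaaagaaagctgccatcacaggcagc
All 3 H2B promoters hold CCAAT, the octamer and TATAAA in that order. HIST1H2BK and HIST1H2BJ rose and HIST2H2BE fell in B-K562, and the 3 were chosen with these values known. Promoter sequences of 250 bases were at hand for 79 of the 91 genes. The octamer was in 14 of 18 H2B promoters and 11 of 16 H2A promoters, many of which overlap one another, in 1 of 12 H3 promoters and in none of H4 or H1, against 1.66% of all 27305 promoters. Of the replication-dependent genes tested in B-K562, 7 of 17 with the octamer were higher and 4 lower (median log2 fold change 0.12). Of 24 without it 4 were higher and 11 lower (median −0.30), beside 38.6% and 37.2% of all genes. The part of the octamer in this was not tested. CCAAT was in every H1, H2A, H2B and H3 promoter and in 3 of 13 of H4, against 33.0% of all. TATAAA was in 3 of 6 H1, 11 of 16 H2A, 9 of 18 H2B, 8 of 12 H3 and 7 of 13 H4 promoters, and in 7.17% of all.

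The replication-dependent genes known for polyadenylated transcripts (HIST1H2BC, HIST1H2BD, HIST1H2BK, HIST2H2BE, HIST1H2AC and HIST1H1C) did not share a direction. In B-K562 3 rose, 2 fell and HIST1H1C was not past the threshold, and in G-K562 3 rose and none fell. Of all genes 38.6% were higher and 37.2% lower in B-K562, and 33.5% and 33.3% in G-K562. HIST2H2BE stood at 5596, 5876 and 5438 in G-K562 beside 4139, 4549 and 4620 in V-K562 (0.35 ± 0.06, adjusted p = 0.000361).

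Of the replication-independent genes of the rule, 5 were higher and 1 lower of 9 tested in B-K562, and 6 higher and 1 lower of 10 in G-K562. The backgrounds are those above, 38.6% higher and 37.2% lower in B-K562 and 33.5% and 33.3% in G-K562. The 1 lower gene in each line is H2AFY2, which passed the filter through V-K562 alone. The 5 higher in B-K562, H2AFX, H2AFY, H1FX, H3F3A and H2AFV, are all abundant. H2AFX encodes H2A.X, which is phosphorylated at DNA breaks. It read 4009, 3851 and 3875 in V-K562 and 8335, 8082 and 7586 in B-K562 (1.03 ± 0.05, adjusted p = 4.20e-10), a 2.04-fold rise. In G-K562 it read 7523, 7538 and 7003 beside 4070, 3910 and 3953 (0.89 ± 0.05, adjusted p = 8.61e-08), and the lines did not overlap. The difference between the BASP1 lines was small (−0.15 ± 0.05, adjusted p = 0.0149). It was not past the threshold when scaled by the total (adjusted p = 0.101) or with quantile normalization (adjusted p = 0.247). The call was also lost without B-K562 replicate 1 or 2 or G-K562 replicate 3 (adjusted p = 0.0537 to 0.0788).

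H2AFY, which encodes macroH2A1, rose in B-K562 (0.63 ± 0.05, from 4588 to 5079 up to 7331 to 7702) and in G-K562 (0.34 ± 0.06). H2AFY2, which encodes macroH2A2, fell. It read 14, 10 and 11 in V-K562, 6, 6 and 3 in B-K562 (−1.11 ± 0.39, adjusted p = 0.0186), and 2, 1 and 1 in G-K562 beside 15, 10 and 11 (−2.49 ± 0.42, adjusted p = 0.000249). It passed the filter through V-K562 alone, its values are close to the limit of counting, and the call in B-K562 was lost without B-K562 replicate 3 (adjusted p = 0.0671) and with quantile normalization (adjusted p = 0.632).

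H3F3B, the more abundant of the genes for H3.3, rose in G-K562 from 19799, 18585 and 17961 to 26290, 29271 and 25105 (0.52 ± 0.07, adjusted p = 4.50e-05), and was at 20156, 19488 and 19173 in B-K562 (0.09 ± 0.05, adjusted p = 0.132). The B-K562 value passed the threshold without V-K562 replicate 1 (0.13, adjusted p = 0.0139) and with quantile normalization (adjusted p = 0.0422). H3F3A, which encodes the same protein, rose in B-K562 (0.32 ± 0.07, adjusted p = 0.000849) and was at 0.14 ± 0.09 in G-K562 (adjusted p = 0.179). H3F3A shares near-identical sequence with the pseudogene H3F3AP4, so reads may be divided between them. H2AFZ, for H2A.Z, rose in G-K562 (0.40 ± 0.09, adjusted p = 0.00237). In B-K562 its log2 fold change was 0.10 ± 0.07 (adjusted p = 0.234), and 0.20 (adjusted p = 0.000865) without V-K562 replicate 1. H2AFV, for the related H2A.Z.2, rose by 0.21 ± 0.05 in B-K562 and by 0.14 ± 0.06 in G-K562. With quantile normalization neither rise of H2AFV was past the threshold (adjusted p = 0.105 and 0.129), and that in G-K562 was also lost without a filter, without a trend in the variance, with the replicate number as a block, and without any 1 library other than V-K562 replicate 1 (adjusted p = 0.0512 to 0.177). H1FX, for linker histone H1.10, rose by 0.42 ± 0.05 and 0.41 ± 0.06 and overlaps H1FX-AS1. CENPA, the centromeric H3, was not past the threshold in either (0.02 ± 0.06 and −0.16 ± 0.07), nor was H3F3C (−0.19 ± 0.29 and 0.29 ± 0.34).

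H1F0, for H1.0, turned on 1 library. It read 83, 8 and 14 in V-K562 and 13, 14 and 16 in G-K562 (−0.56 ± 0.63, adjusted p = 0.451), and without V-K562 replicate 1 the log2 fold change was 0.40 (adjusted p = 0.339). The part of that library's KRT5 and CDH1 signal in this was not tested. Against B-K562 (9, 6 and 5) the G-K562 value differed by 1.01 ± 0.60 (adjusted p = 0.136), and with V-K562 replicate 1 left out of the shared error by the same amount at an adjusted p of 0.0145. H2AFJ stayed at 2 to 15 and was not tested.

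HIST1H2AA and HIST1H2BA form a head-to-head pair at the edge of the HIST1 cluster (chr6:25726063-25726562 and chr6:25726909-25727345) and are known from testis. HIST1H2AA was at 0, 1 and 2 in V-K562, 9, 18 and 19 in B-K562 and 1, 0 and 2 in G-K562. HIST1H2BA was at 3, 0 and 1, at 9, 4 and 6, and at 0, 1 and 0. In both genes the B-K562 values lay above all others. Neither reached the filter of 10 in 3 libraries. Without that filter the adjusted p against V-K562 was 0.000589 for HIST1H2AA and 0.0195 for HIST1H2BA, on values too low for a fold. The pair was chosen after its values had been seen.

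The same start region carried an ATAC-seq peak in all 3 B-K562 libraries, with summit pileups (overlapping tags at the highest point) of 78, 62 and 64. No V-K562 library had a peak there, and the G-K562 peaks reached 15, 19 and 19. With libraries without a peak and values below 17 set to 17, the region was less accessible in G-K562 than in B-K562 (−1.94, adjusted p = 1.78e-05). The G-K562 values lie at that floor and the V-K562 libraries are all set to it. The floor thus bears on both the size and the adjusted p, in a region chosen after its values had been seen. Against V-K562 it entered the test through its B-K562 peaks alone and had to differ, so it is given as values. It is the one region at a histone gene start counted as opening by 2-fold or more in B-K562 (background 1.53%), and the one counted as closing by 2-fold between the BASP1 lines (8.51%).

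**Figure D4:**
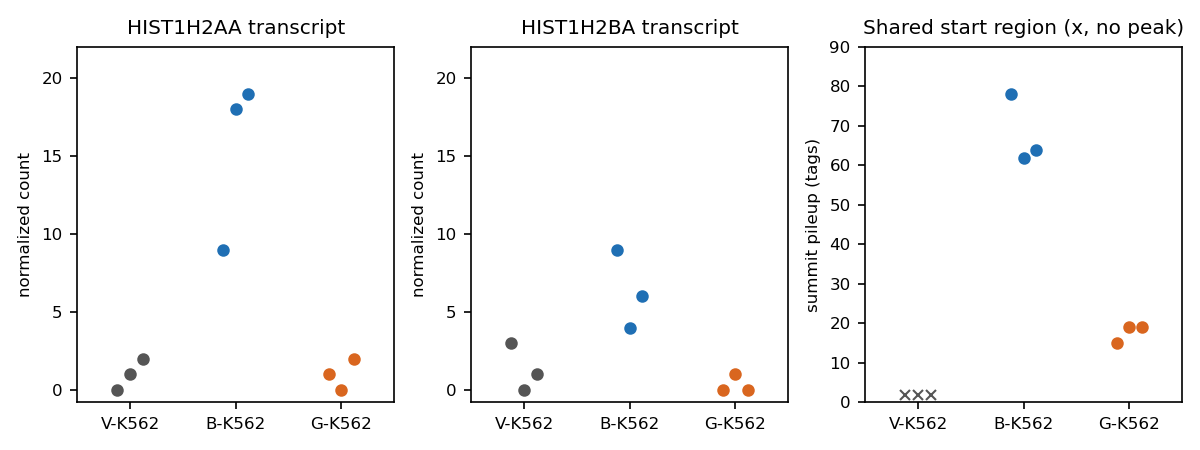
Normalized counts of HIST1H2AA and HIST1H2BA, and the summit pileup in tags of the ATAC-seq region at their shared start, per library; crosses mark V-K562 libraries in which no peak was called. The B-K562 libraries are the highest in each panel (9 to 19, 4 to 9, and 62 to 78).

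Genes that make, process and handle histone transcripts and proteins were examined beside them. Of 29 factors for histone gene transcription and 3′ end formation, 21 were higher and 1 lower in B-K562, and 11 higher and 5 lower in G-K562. Of all genes 38.6% were higher and 37.2% lower in B-K562, and 33.5% and 33.3% in G-K562, so the share of factors higher in G-K562 lies near the background. SLBP rose from 3516, 3250 and 2914 to 5548, 5294 and 5155 in B-K562 (0.73 ± 0.06, adjusted p = 1.52e-07) and read 3615, 4029 and 3406 in G-K562 beside 3569, 3300 and 2973 (0.17 ± 0.08, adjusted p = 0.0841). The G-K562 value passed the threshold without V-K562 replicate 1 (0.23, adjusted p = 0.0274) and without G-K562 replicate 3 (adjusted p = 0.0462). NPAT, the coactivator of the clusters, rose in both (0.81 ± 0.06 and 0.74 ± 0.07), as did CASP8AP2 (0.56 ± 0.07 and 0.25 ± 0.08) and the U7 snRNP subunit LSM10 (0.54 ± 0.09 and 0.25 ± 0.09). In G-K562 the rise of CASP8AP2 was lost without V-K562 replicate 3 or G-K562 replicate 1 or 3 (adjusted p = 0.0519 to 0.0740). It was also lost without a trend in the variance (0.0546). That of LSM10 was lost without V-K562 replicate 2 or 3 or G-K562 replicate 2 (adjusted p = 0.0959 to 0.144). It was also lost with quantile normalization, without a filter and without a trend in the variance (0.0588 to 0.0917). LSM11, the other subunit particular to the U7 snRNP, fell in both: it read 1163, 1156 and 1229 in V-K562 and 645, 688 and 675 in B-K562 (−0.82 ± 0.06, adjusted p = 2.19e-08), and differed by −0.38 ± 0.06 in G-K562. ZNF473, which binds LSM11, had the largest rise of the list in B-K562 (1.03 ± 0.06). In G-K562 the largest fall was that of NELFA, a subunit of the negative elongation factor (−0.71 ± 0.06), and the largest rise that of CPSF2, a cleavage factor subunit (0.86 ± 0.06).

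Most histone chaperones and S phase genes were higher in B-K562, and their G-K562 counts lay near the background just given. Of 26 chaperones and carriers 19 were higher and 3 lower in B-K562, and 7 higher and 9 lower in G-K562. IPO4, an importer of H3 and H4, rose most in B-K562 (1.46 ± 0.06) and NAP1L1, a chaperone of H2A and H2B, fell most (−0.76 ± 0.05). In G-K562 ASF1B, a chaperone of H3 and H4, rose most (0.91 ± 0.06) and HJURP, the CENP-A chaperone, fell most (−0.54 ± 0.07). Of 21 S phase genes 18 were higher and 1 lower in B-K562, led by PCNA (0.82 ± 0.08) with TK1 lower (−0.25 ± 0.04), and 6 higher and 9 lower in G-K562, between CCNE2 (0.70 ± 0.10) and RRM1 (−0.56 ± 0.07).

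Between the BASP1 lines these lists and the replication-dependent genes lay on opposite sides of 0. In G-K562 against B-K562, 57 of the 76 listed genes were lower and 7 higher, with a median log2 difference of −0.39 (background 40.5% lower and 38.1% higher), beside the 28 higher and 6 lower replication-dependent genes with a median of 0.68. SLBP was lower in G-K562 (−0.56 ± 0.07, adjusted p = 4.83e-06), and the largest fall within each list was that of IPO4 for chaperones (−1.36 ± 0.06), ZNF473 for factors (−1.09 ± 0.06) and GINS2 for S phase genes (−1.04 ± 0.06). The 7 higher in G-K562 were NAP1L1 (1.48 ± 0.05), ASF1B (0.81 ± 0.05), ERI1, the exonuclease that trims histone mRNA (0.47 ± 0.05), LSM11 (0.44 ± 0.06), YY1 (0.36 ± 0.05), TK1 (0.19 ± 0.04) and CPSF2 (0.17 ± 0.05), of which YY1 was named after its values had been seen. The lists were not tested against other genes.

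ATAC-seq regions lay within 500 bp of the start of 54 histone genes, as 43 regions of which 13 served more than 1 gene. Of the 49 replication-dependent genes tested in RNA-seq 43 had such a region, and of the 23 not tested 3 did. Of the 41 regions tested in B-K562, 11 opened and 1 closed at an adjusted p of at most 0.05, against 8.58% and 16.6% of all regions. In G-K562, 6 opened and 6 closed of 41, against 16.1% and 25.9%. By 2-fold or more, none closed against V-K562 in either line (background 6.16% and 13.1%), 1 opened in G-K562 (2.91%), and none was more accessible in G-K562 than in B-K562 (4.35%). The region that opened in G-K562 is a second one near HIST2H2AB, with a peak in the G-K562 libraries (74, 59 and 59) and in B-K562 replicate 3 (83). No V-K562 library had a peak there, so it entered that test through G-K562 alone and had to differ. These counts depend on how libraries are scaled: with the equal number of tags as the only normalization, 18 opened and none closed in B-K562, and 19 opened and 1 closed in G-K562. They also depend on single libraries: 6, 5, 7 and 5 regions opened in B-K562 without B-K562 replicate 1 or 2 or V-K562 replicate 2 or 3, and with any 1 library left out 2 to 4 opened and 2 to 4 closed in G-K562.

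At the replication-dependent starts, 14 of 36 regions were less accessible in G-K562 than in B-K562 and none more, with a median log2 difference of −0.31, against 15.4% and 12.6% of all 60181 regions. With the equal number of tags as the only normalization 7 of the 36 were less accessible and none more, with a median of −0.10. Of 43 genes with both measures, 29 had a higher transcript value and a less accessible start in G-K562, and 10 were lower in both, whether or not they passed a test. The 29 would be fewer with equal tags only, where some of these starts changed sign. Among them were those of HIST1H4D (0.17), HIST3H2A and HIST3H2BB (0.08), HIST1H2AK and HIST1H2BN (0.03) and HIST1H3F (0.05). The same counts over all genes are not given here. At the start of HIST1H2AG and HIST1H2BJ the summits were 232, 224 and 207 in V-K562, 394, 320 and 329 in B-K562 and 303, 238 and 304 in G-K562. This region opened in B-K562 (0.49, adjusted p = 0.00833) and was less accessible in G-K562 than in B-K562 (−0.51, adjusted p = 0.00457), the latter not past the threshold with equal tags only (adjusted p = 0.0693). HIST1H4I's region read 93, 80 and 97, then 59, 63 and 76, and 60, 63 and 61. It was less accessible than in V-K562 both in B-K562 (−0.60, adjusted p = 0.0254), where the transcript fell, and in G-K562 (−0.88, adjusted p = 0.00181), where it rose. With equal tags only these were −0.45 (adjusted p = 0.0525) and −0.54 (adjusted p = 0.00998). HIST1H1C's region read 92, 99 and 99 in V-K562, 132, 140 and 138 in B-K562 and 100, 78 and 104 in G-K562. It opened in B-K562 (0.34, adjusted p = 0.0312). In G-K562 its summits overlapped those of V-K562, and the difference depended on the scaling (−0.39, adjusted p = 0.0361, and −0.05, adjusted p = 0.784, with equal tags only). Its transcript was not past the threshold in either line. Across these 43 genes, which share 31 regions, Spearman's rho of the RNA-seq and ATAC-seq differences between G-K562 and B-K562 was 0.122, given as a description.

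With all libraries kept, most tested starts of replication-independent genes opened in both lines. H2AFX's region, with summits of 118, 139 and 134 in V-K562, reached 232, 209 and 223 in B-K562 (0.61, adjusted p = 0.00345) and 264, 277 and 292 in G-K562 (0.74, adjusted p = 0.000695). H2AFZ's region opened by 0.54 and 0.65 on the log2 scale. Of the 6 replication-independent regions tested 4 opened in B-K562 and 5 in G-K562, and none closed. Of all regions, 8.58% opened and 16.6% closed in B-K562, and 16.1% and 25.9% in G-K562. The 5 in G-K562 did not hold with any 1 library left out, when 2 to 4 regions opened over all histone gene starts.

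**Figure D5:**
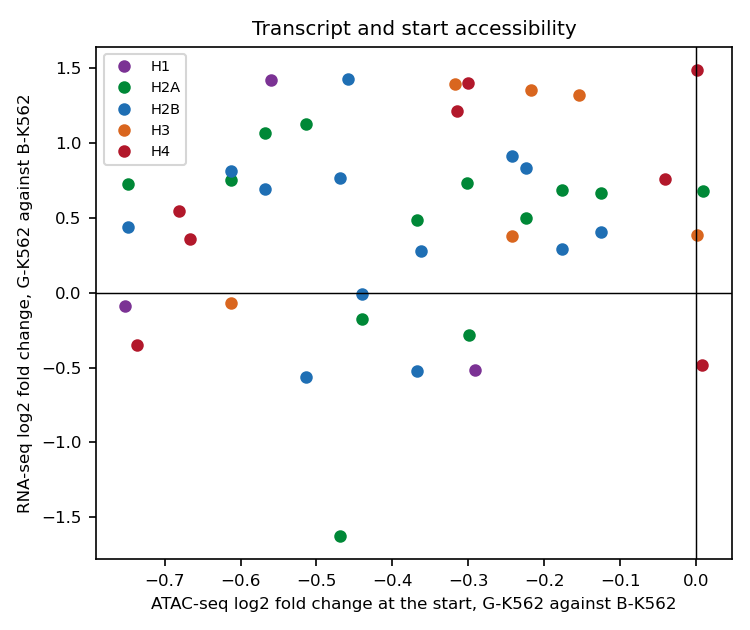
Log2 fold change of G-K562 against B-K562 in RNA-seq (vertical axis) and at the nearest ATAC-seq region within 500 bp of the start (horizontal axis) for 43 replication-dependent histone genes, coloured by family; genes that share a start share a horizontal position. Most points lie left of 0 and above 0. HIST2H2AC, which passed the filter only with its B-K562 values, is the lowest at −1.62.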

How the data were processed

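RNA-seq and ATAC-seq triplicates of the V-K562 control, B-K562 (wild type BASP1) and G-K562 (BASP1-G2A) lines were analysed. For the deposited RNA-seq values the authors aligned poly(A) selected, stranded libraries (STAR 2.4.2a, GRCh38), dropped duplicate and multiply mapping reads and those with over 2 mismatches, assigned the rest to RefSeq genes with Subread, and divided the counts by DESeq2 size factors. These normalized counts (a signal, rounded to whole numbers) were given in a table per comparison with V-K562. Unique mapping lowers identical copies, and removing duplicates can lower short, abundant genes. Whether counting used strand is not given in the sources used here. For ATAC-seq, on cells treated with DNase, the authors mapped with BWA-MEM and called peaks in each library with MACS2. The deposited summit pileup (a signal) was used, and the deposited peak scores, −log10 p-values and fold enrichments were not. Columns with the authors' mean values, fold changes and p-values were not used either.

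Values were tested on log2(value + 1) with limma 3.58.1 (R 4.3.3, trended variance, two-sided, Benjamini-Hochberg over all genes) for genes with at least 10 in at least 3 libraries. For G-K562 against B-K562, B-K562 values were multiplied by 1.017, from the V-K562 libraries that both tables hold. Peaks were merged by overlap into 85549 regions, each valued by its highest summit and scaled by a trimmed mean. Libraries lacking a peak and lower values were set to 17 (5th percentile). Regions were tested likewise where at least 3 libraries had a peak. Log2 fold changes are given with the standard error of the fit. On simulated data 98.0% to 100.0% of 2-fold changes were recovered in RNA-seq and 93.5% to 96.5% in ATAC-seq. The simulated spread was set in advance and not taken from these libraries. Genes and regions of low value were not among those changed. These shares therefore do not measure recovery in these data or at low values. Shares per 1000000 are of the summed values of a library. The members, lists and tests were chosen with earlier results of these data known. The named genes were the 10 largest changes of at least 2-fold a direction, the 6 highest per kb, the listed variants and polyadenylated genes, 5 factors and the extremes of each list. Triplicates are cultures of 1 line each, so p-values measure the spread between cultures. Alternatives changed the scaling, filter, pseudocount, variance model, distance, floor and libraries.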

Additional observations from a re-analysis of the deposited data

Results flagged for a closer look

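The following 11 histone genes, of 42 replication-dependent genes tested in both comparisons, fell in B-K562 and rose in G-K562 against V-K562. Genes called in opposite directions against the same control all but have to differ between the BASP1 lines. The direct test on the same libraries therefore adds no support and is given for its size. The share of all genes with this pattern is not given here. The log2 difference, G-K562 minus B-K562, was 1.48 for HIST1H4E, 1.42 for HIST1H2BD, 1.42 for HIST1H1D, 1.40 for HIST1H4I and 1.36 for HIST2H2BC. It was 1.35 for HIST1H3B, 1.21 for HIST1H4H, 1.13 for HIST1H2AG, 0.76 for HIST2H2BE, 0.72 for HIST1H2AE and 0.69 for HIST1H2BO. The adjusted p of the direct test was highest for HIST2H2BC (0.000116). Both comparisons with V-K562 use the same V-K562 libraries. The falls in B-K562 of HIST1H1D, HIST2H2BC, HIST1H2AG and HIST1H2BO were lost when single libraries were left out, among them V-K562 replicate 2 (adjusted p = 0.146, 0.0720, 0.156 and 0.108), and the rise of HIST2H2BC in G-K562 was lost without V-K562 replicate 1 (adjusted p = 0.0940). HIST1H1D and HIST2H2BC are low (21 to 109 over the libraries), and HIST2H2BC is listed by RefSeq as a pseudogene.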

How the results depend on the processing

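With quantile normalization, histone genes lower in B-K562 numbered 11 in place of 18, those lower by 2-fold 0 in place of 2, and listed factors, chaperones and S phase genes lower in B-K562 11 in place of 5. HIST1H1D reversed from −0.4445 to 0.0469 in B-K562, and 4 histone genes were lower by 2-fold in G-K562 than in B-K562 in place of 2. Scaling by the total gave 11 listed genes higher in G-K562 than B-K562 in place of 7. These scalings moved the median of all genes by less than 0.1. Requiring 10 in every library left 1 gene higher and 1 lower by 2-fold in B-K562 (main 4 and 2), 1 lower and 0 lower by 2-fold in G-K562 (main 2 and 1), and 0 lower by 2-fold between the BASP1 lines. Without a filter the genes lower by 2-fold were 5, 2 and 4 in the 3 comparisons, and with a pseudocount of 5 they were 1 in B-K562 and 1 between the BASP1 lines.

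For ATAC-seq, equal tags alone gave 18 opened and 0 closed regions in B-K562 (main 11 and 1), 19 opened, 2 by 2-fold, and 1 closed in G-K562 (main 6, 1 and 6), and 1 opened and 7 closed between the BASP1 lines (main 0 and 14). Scaling within bins of GC content left 0 closed in B-K562. With a peak in every library, regions opened by 2-fold were 0 in B-K562 and 0 in G-K562 and closed by 2-fold 0 between the BASP1 lines (main 1 each), and within 100 bp of the start 0 opened by 2-fold in G-K562. The cause of these shifts was not tested.

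Leaving out 1 library gave ranges of 14 to 19 genes higher and 11 to 18 lower in B-K562, with 2 to 4 and 1 to 2 by 2-fold, 1 to 2 lower and 0 to 1 by 2-fold in G-K562, and 1 to 3 lower by 2-fold between the BASP1 lines. In B-K562 0 to 1 regions closed, 5 to 11 opened and 0 to 1 opened by 2-fold. In G-K562 2 to 4 closed, 2 to 4 opened and 0 to 1 opened by 2-fold, and between the BASP1 lines 0 to 1 opened, 0 to 1 by 2-fold. Equal replicate numbers did not pair libraries (correlations of −0.097 to 0.145 in RNA-seq and 0.007 to 0.11 in ATAC-seq). With the replicate number as a block, counts in RNA-seq were 17 higher and 18 lower in B-K562, 30 and 2 in G-K562 and 30 and 9 between the BASP1 lines, and 14, 5 and 0 regions opened in the 3 comparisons. Genes below about 10, such as HIST1H2AA, are limited by depth.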
